A study of Mus musculus with 19 samples.

Results

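Endothelial marker genes were followed in mouse tibialis anterior muscle, a fast muscle of the lower leg, measured on 19 single-colour expression arrays. The members are 36 genes listed for their known expression in the lining of blood and lymph vessels. The list was chosen with earlier results of these data known. Of the 36, 34 had at least 1 probe set (a group of short probes for a transcript) with a single gene symbol, among 12393 such genes on the array; Mmrn2 and Gpihbp1 were not analysed here. One probe set stood for a gene, the one with the highest mean over the 19 arrays, and 32 of the 34 lay in the upper 60% of genes by mean, the 7436 genes that were tested. Erg and Tal1 were dimmer and were not tested.

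The 4 groups were wild-type muscle of the strain 129/SVE at 7 to 9 weeks (WT_Adult, 5 arrays), wild-type muscle at 12 to 14 months (WT_Aged, 5), desmin knockout muscle, genotype Des(-/-) on 129/SVE, at 7 to 9 weeks (KO_Adult, 5) and the same knockout at 12 to 14 months (KO_Aged, 4). All 4 groups had done 50 eccentric contractions (lengthening under load) 12 h before RNA was taken, so each difference is one between exercised muscles. Desmin, an intermediate filament protein, ties the contractile apparatus of a fibre together and is also made in vascular smooth muscle. Whether the arrays of a group are separate animals is not in the labels. Sample titles end in a numeric code of unstated meaning, and its first 4 digits are shared by WT_Adult replicates 3, 4 and 5, by KO_Adult replicates 3 and 4, and by WT_Aged replicates 4 and 5 with KO_Aged replicate 4. The p-values below therefore describe array-to-array spread, some of which may be technical.

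Endothelial cells line every vessel, and in skeletal muscle most of them sit in the capillaries that run beside the fibres. They are held together by junction proteins such as VE-cadherin, are kept alive and quiescent through the receptors for vascular endothelial growth factors and for angiopoietins, and owe their identity to transcription factors of the ETS and SOX families. In whole muscle these transcripts come from a small part of the tissue, and on these arrays fewer endothelial cells and less RNA of these genes per cell cannot be told apart. Several members are not restricted to endothelium: Cd34 is also found on progenitor cells of muscle, Lyve1 on macrophages, Ets1 and Fli1 in leukocytes and Aqp1 in red blood cells.

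Des read 10749 to 22313 on the 10 wild-type arrays and 72.7 to 879 on the 9 knockout arrays. Signal of the poly-A control dap, a spiked bacterial transcript, was present (1184 to 3103) on the 5 WT_Aged arrays and 3 of KO_Adult (replicates 3 to 5), and near background (1 to 17.4) on 11. WT_Adult against WT_Aged therefore lies wholly across this split, as does KO_Aged against WT_Aged, and the comparisons with KO_Adult lie across it for some arrays. A high Gapdh 3' to 5' ratio, a sign of shortened RNA or cDNA, marked KO_Aged replicates 2 (8.61) and 3 (5.01), where every other array had at most 0.968. The first principal component (38.8% of variance) separated the arrays with poly-A control signal (14.9 to 39.4) from those without (-46.3 to 6.62). On it WT_Adult replicates 4 (-3.29) and 5 (1.60) stood apart from the rest of their group, near KO_Aged replicates 1 (6.62) and 4 (1.30). Leaving out these 2 WT_Adult arrays, 25 members were lower and 0 higher in adult knockout muscle. The share of all genes was not counted in that run. Muscle fibre markers were bright in every group, with a sum over 12 genes of at least 228193 on every array and at most 453675; none of the 12 was called in adult knockout against wild-type muscle. In aged knockout muscle 2 of them, Atp2a1 at 0.48 and Myh2 at 1.49, were higher, where 17.1% of all genes were. The same 2 were lower with age in wild-type muscle (-0.31 and -1.02), where 21% of all genes were. Both were above 0 in the interaction of genotype and age described below (0.61 and 1.72), where 14.5% of all genes were.

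The members were lower, as a median, on every knockout array than on every wild-type array. For each array the median deviation of the 32 tested members from their own means over 19 arrays was taken on the log2 scale. It was 0.60, 0.62, 0.67, 0.56 and 0.31 on WT_Adult replicates 1 to 5, and 0.17, 0.10, 0.24, 0.18 and 0.19 on WT_Aged replicates 1 to 5. It was -0.18, -0.49, -0.53, -0.46 and -0.47 on KO_Adult replicates 1 to 5, and -0.37, -0.18, -0.37 and -0.52 on KO_Aged replicates 1 to 4. The 9 knockout arrays all lay below 0 and below the lowest wild-type array, at 0.10, and the WT_Aged arrays lay between the adult wild-type and the knockout arrays. For 5 members, Egfl7, Esam, Flt1, Ptprb and Sox18, every knockout array lay below every wild-type array, where 0.565% of all 7436 genes did so, and for none did every knockout array lie above.

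**Figure D1:**
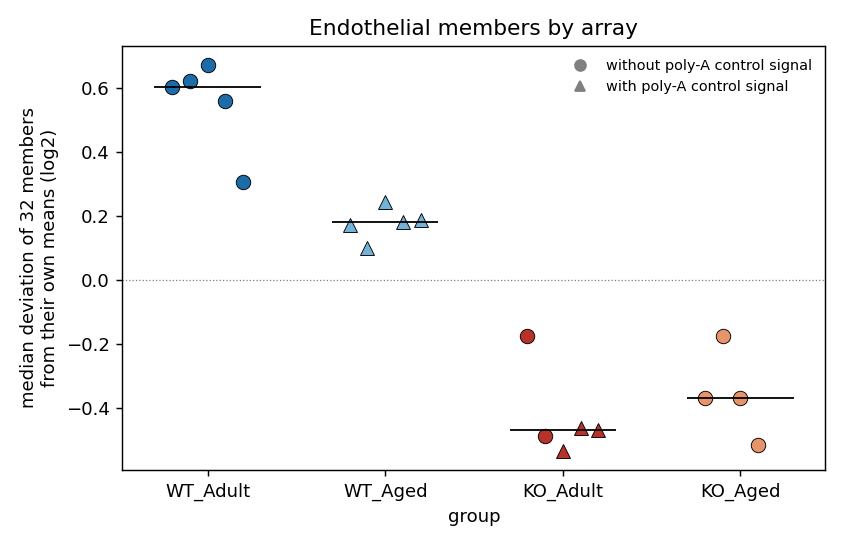
Median deviation of the 32 tested members from their own means (log2, vertical axis) on each of 19 arrays by group (horizontal axis). Circles are arrays without and triangles arrays with poly-A control signal, and lines are group medians. The 9 knockout arrays lie between -0.53 and -0.18 and the 10 wild-type arrays between 0.10 and 0.67.

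**Figure D2:**
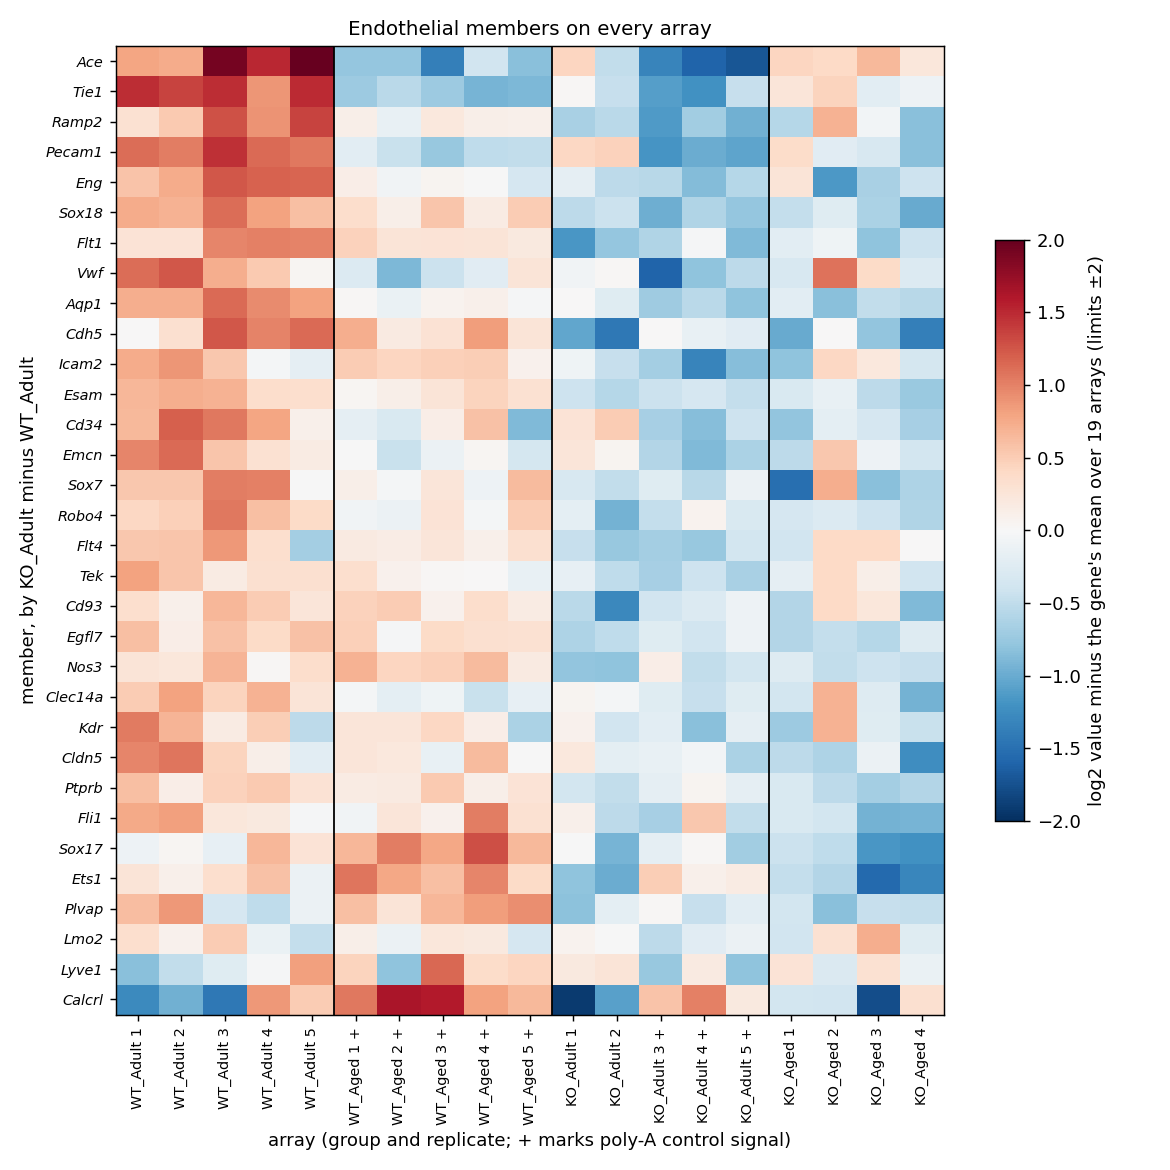
Each tested member (rows, ordered by the KO_Adult minus WT_Adult difference) on each array (columns, + for poly-A control signal), as the log2 value minus the gene's mean over 19 arrays, with colours limited at ±2. Most rows are red in WT_Adult and blue in both knockout groups, while Calcrl, Ets1, Sox17, Plvap, Nos3, Lyve1 and Icam2 have their highest group mean in WT_Aged.

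Adult knockout muscle was compared with adult wild-type muscle. KO_Adult replicates 3 to 5 carried poly-A control signal and no WT_Adult array did, so the comparison is not one of genotype alone. Of the 32 tested members, 23 fell and none rose, where 9.39% of all genes were lower and 7.21% higher (limma, adjusted p under 0.05). The median difference of the members was -0.94 on the log2 scale, against 0.04 for all genes, and 31 of the 32 were below 0, as were 46.7% of genes. Single members ran from -2.36 for Ace to 0.21 for Calcrl. In 17 of the members the KO_Adult arrays all lay below the WT_Adult arrays, where 5.61% of all genes did.

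Among the receptors for growth factors and the phosphatase Ptprb, 6 of 7 fell. Tie1, the receptor tyrosine kinase that pairs with the angiopoietin receptor, read 412, 367, 415, 303 and 456 on the 5 WT_Adult arrays and 135, 99.1, 55.5, 56.3 and 94.7 on the 5 KO_Adult arrays (deposited intensity, replicates in order). The groups did not overlap, and the highest knockout reading was below the lowest wild-type one. Tie1 fell by 1.98 (SE 0.21, adjusted p = 9.20e-06), a 3.94-fold difference. Tek, the angiopoietin receptor itself, read 777, 628, 502, 581 and 597 in WT_Adult and 376, 288, 269, 312 and 279 in KO_Adult, again without overlap. It fell by 0.91 (SE 0.16, adjusted p = 0.00133).

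Flt1, the growth factor receptor that also acts as a decoy, read 527, 504, 860, 886 and 891 in WT_Adult and 176, 231, 275, 407 and 228 in KO_Adult. WT_Adult replicates 1 and 2 were lower than the other 3 arrays of their group but above every knockout array, and Flt1 fell by 1.39 (SE 0.21, adjusted p = 0.000295). Kdr, the main signalling receptor for the same growth factors, read 470, 352, 256, 349 and 191 in WT_Adult and 222, 156, 184, 115 and 192 in KO_Adult. Its groups overlapped and the difference of -0.68 (SE 0.29) did not pass (adjusted p = 0.119). Flt4, the receptor best known from lymphatic vessels, read 228, 222, 290, 219 and 123 in WT_Adult and 101, 84.7, 83.5, 82.2 and 109 in KO_Adult. The groups did not overlap, though WT_Adult replicate 5 lay close to the highest knockout array, and Flt4 fell by 0.92 (SE 0.23, adjusted p = 0.00957). Eng (endoglin, a co-receptor of the transforming growth factor family) read 913, 986, 1436, 1376 and 1328 in WT_Adult and 516, 398, 410, 315 and 412 in KO_Adult without overlap, and fell by 1.52 (SE 0.21, adjusted p = 0.000163). Ptprb, the phosphatase that restrains Tek, fell by 0.64 (SE 0.14).

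Of 11 junction and surface proteins 9 fell. Pecam1, an adhesion molecule of cell contacts, read 1183, 1083, 1497, 1202 and 1134 in WT_Adult and 709, 702, 234, 261 and 258 in KO_Adult. Replicates 1 and 2 of KO_Adult, the arrays without poly-A controls, were the highest of their group, and all 5 were below wild type. Pecam1 fell by 1.63 (SE 0.30, adjusted p = 0.00148). Esam, a tight junction adhesion molecule, read 1338, 1395, 1378, 1116 and 1086 in WT_Adult and 614, 542, 636, 674 and 620 in KO_Adult, and fell by 1.003 (SE 0.14, adjusted p = 0.000105). Cdh5 (VE-cadherin, the adherens junction protein) differed by -1.30 (SE 0.31), Icam2 by -1.06, the sialomucins Emcn and Cd34 by -0.99 and -0.99, the guidance receptor Robo4 by -0.96, the lectin-like proteins Cd93 by -0.89 and Clec14a by -0.73, and these 7 were called. The tight junction protein Cldn5 at -0.64 (adjusted p = 0.0878) and the hyaluronan receptor Lyve1 at -0.03 (adjusted p = 0.959) were not.

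Of 6 transcription factors 2 fell, both from the SOX family that specifies endothelium. Sox18 read 793, 733, 1019, 848 and 746 in WT_Adult and 311, 322, 229, 291 and 270 in KO_Adult, without overlap, and fell by 1.45 (SE 0.16, adjusted p = 1.29e-05). Sox7 fell by 0.97 (SE 0.30, adjusted p = 0.0333). Sox17 read 597, 626, 579, 1027 and 807 in WT_Adult and 609, 307, 565, 634 and 394 in KO_Adult, overlapping, and its -0.50 (SE 0.23) did not pass (adjusted p = 0.135). The ETS factors Ets1 and Fli1 were at -0.44 and -0.61, and Lmo2, a partner of blood and vessel transcription factors, at -0.23; none of these 3 passed.

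The remaining 8 members are the 2 chains of the adrenomedullin receptor and 6 enzymes, channels and secreted or structural proteins, and 6 of the 8 fell. Aqp1, the water channel of capillary endothelium, read 8668, 9177, 12207, 9928 and 8788 in WT_Adult and 5666, 4738, 3277, 3730 and 3040 in KO_Adult. Every knockout array was below every wild-type array, and Aqp1 fell by 1.32 (SE 0.16, adjusted p = 2.91e-05). Ace (angiotensin-converting enzyme) read 280, 258, 614, 485 and 764 in WT_Adult and 200, 106, 51.8, 47.0 and 37.6 in KO_Adult, without overlap, and fell by 2.36 (SE 0.36, adjusted p = 0.000305). Egfl7, a secreted factor of endothelium, read 1021, 715, 1026, 903 and 1030 in WT_Adult and 423, 447, 572, 509 and 641 in KO_Adult without overlap, and fell by 0.82 (SE 0.14). The clotting factor Vwf at -1.33, the nitric oxide synthase Nos3 at -0.77 and the adrenomedullin co-receptor Ramp2 at -1.66 were called as well. The diaphragm protein Plvap at -0.44 and Calcrl, the other chain of the adrenomedullin receptor, at 0.21 were not.

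Leaving out a single array ended the call for 4 of the 23. Cd93 was not called without WT_Adult replicate 3 (adjusted p = 0.0523). Cd34, Clec14a and Sox7 lost the call without WT_Adult replicate 3, KO_Adult replicate 3 or KO_Adult replicate 4, and 1 or 2 of them also without WT_Adult replicate 1, 2 or 4 or KO_Adult replicate 2 or 5, with adjusted p from 0.0505 to 0.0916. With poly-A control signal as a term in the model 16 members fell, 15 of them among the 23, and Ets1 was the other at -1.14. The 8 that lost the call were Cd34 at -0.37 (adjusted p = 0.494), Clec14a at -0.54 (0.250), Emcn at -0.48 (0.298), Flt4 at -0.93 (0.0732), Icam2 at -0.66 (0.209), Pecam1 at -0.72 (0.0680), Sox7 at -1.03 (0.129) and Vwf at -0.76 (0.246). The term is estimated from KO_Adult alone, the only group on both sides of the split. With the term, the adult difference is therefore that of KO_Adult replicates 1 and 2 against the 5 WT_Adult arrays. It rests on fewer knockout arrays than the main comparison. In it 3.11% of all genes were lower and 3.56% higher. For aged knockout muscle, wild-type age and the interaction, the share of all genes called with the term was not counted.

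**Figure D3:**
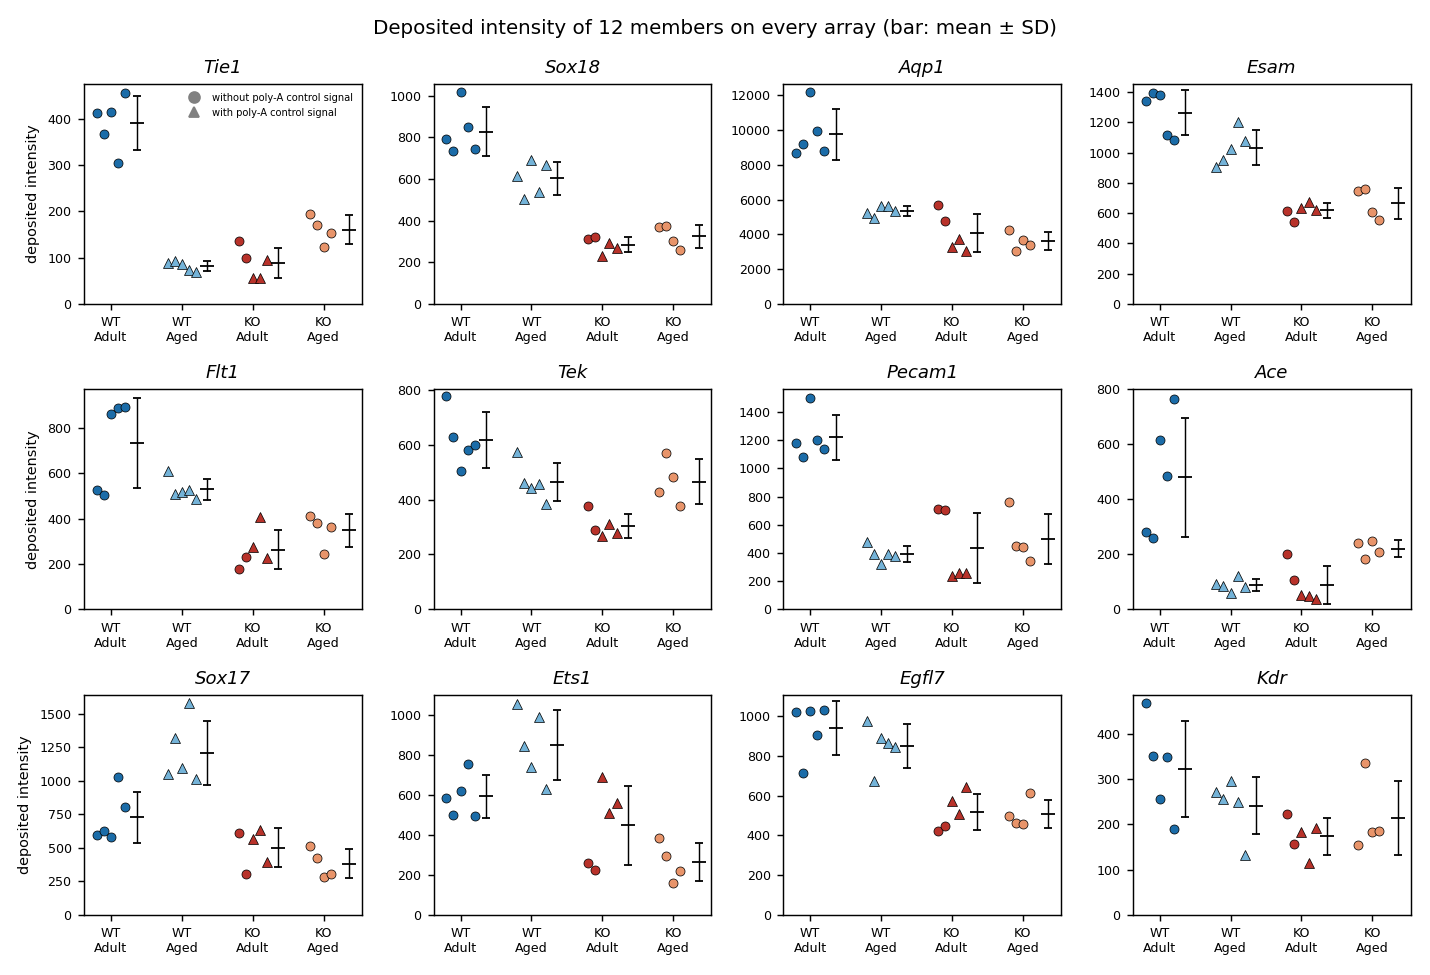
Deposited intensity (vertical axis, linear from 0) of 12 members on every array by group, with the mean ± SD beside each group; circles are arrays without and triangles arrays with poly-A control signal. Sox18, Esam, Flt1 and Egfl7 separate the 9 knockout from the 10 wild-type arrays, while for Tie1, Pecam1 and Ace every WT_Adult array lies above every array of the other groups.

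The sequences just upstream of the start sites are shown for the 3 members with the smallest p in adult muscle that had an entry, Tie1, Aqp1 and Eng, because these genes fell together. Entries were found for 17 of the 36 members in the RefSeq table (GRCm38.p6), and each window holds the 250 bases before the start, 5' to 3' on the gene's strand. Capitals mark GGAA, the core that ETS factors bind, or TTCC, the same core on the other strand. Tie1 lies on the minus strand at chr4:118489850-118490099, Aqp1 on the plus strand at chr6:55336049-55336298 and Eng on the plus strand at chr2:32646345-32646594.
Tie1: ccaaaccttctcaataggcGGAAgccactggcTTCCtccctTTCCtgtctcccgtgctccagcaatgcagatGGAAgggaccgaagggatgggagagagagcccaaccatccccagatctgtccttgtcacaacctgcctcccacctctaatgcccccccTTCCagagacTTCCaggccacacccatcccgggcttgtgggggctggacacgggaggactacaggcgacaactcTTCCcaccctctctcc
Aqp1: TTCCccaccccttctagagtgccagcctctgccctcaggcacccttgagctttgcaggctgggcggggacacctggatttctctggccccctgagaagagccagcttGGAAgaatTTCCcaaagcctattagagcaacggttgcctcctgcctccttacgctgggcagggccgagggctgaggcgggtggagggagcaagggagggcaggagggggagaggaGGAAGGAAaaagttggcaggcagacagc
Eng: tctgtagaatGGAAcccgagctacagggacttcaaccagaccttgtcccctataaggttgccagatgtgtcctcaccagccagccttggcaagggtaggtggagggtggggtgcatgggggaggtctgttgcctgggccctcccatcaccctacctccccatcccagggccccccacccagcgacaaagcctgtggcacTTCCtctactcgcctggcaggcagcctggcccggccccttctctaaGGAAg
The windows held 7, 5 and 3 matches to the core. The core was found in 20 of the 23 windows of members (several genes have more than 1 start site) and in 93.4% of all 32851 windows of the table. CCGGAA, a longer ETS motif that contains the core, was in 1 of the 23 windows and 12.0% of all windows, the GATA motif AGATAA in 2 and 9.99%, and the SOX motif ACAAT in 7 and 27.7%, each searched on both strands. Letter matches describe these windows only and say nothing of binding.

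Aged knockout muscle was compared with aged wild-type muscle in the same way. Here 14 of 32 members fell and 2, Tie1 and Ace, rose, where 12.3% of genes were lower and 17.1% higher. The median of the members was -0.53, against 0.08 for all genes, and 26 were below 0, as were 44.7% of genes. The groups did not overlap in 14 members with lower knockout values and in 2 with higher ones, where 13% and 18.4% of genes did so. All arrays of KO_Aged lacked poly-A controls and all of WT_Aged carried them, so age-matched genotype and this split cannot be told apart here.

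Of 6 transcription factors 4 fell. Sox17 read 1050, 1319, 1092, 1577 and 1009 in WT_Aged and 514, 421, 281 and 305 in KO_Aged, and fell by 1.71 (SE 0.24, adjusted p = 7.12e-05). Ets1 read 1056, 841, 737, 989 and 629 in WT_Aged and 383, 295, 160 and 220 in KO_Aged, and fell by 1.74 (SE 0.29, adjusted p = 0.000308). Sox18 read 613, 502, 692, 539 and 667 in WT_Aged and 371, 372, 301 and 259 in KO_Aged, and fell by 0.93 (SE 0.17, adjusted p = 0.000608). In all 3 the groups were separate. Fli1 also fell, by 0.95, while Sox7 at -0.73 (adjusted p = 0.0906) and Lmo2 at 0.09 did not pass.

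Of the receptors, Ptprb and Flt1 fell. Ptprb read 622, 613, 783, 598 and 654 in WT_Aged and 481, 351, 336 and 400 in KO_Aged, and fell by 0.78 (SE 0.14, adjusted p = 0.000727). In adult muscle Ptprb read 832, 569, 751, 796 and 711 in WT_Adult and 399, 360, 474, 546 and 484 in KO_Adult, and every knockout array lay below every wild-type array. Flt1 read 608, 510, 518, 526 and 486 in WT_Aged and 410, 379, 243 and 362 in KO_Aged, and fell by 0.67 (SE 0.22, adjusted p = 0.0303). Tie1 went the other way: it read 87.8, 92.4, 86.3, 72.4 and 69.4 in WT_Aged and 195, 171, 122 and 154 in KO_Aged, and rose by 0.86 (SE 0.22, adjusted p = 0.00776). Every KO_Aged reading of Tie1 was below every WT_Adult reading. The values of Tek (574, 461, 442, 456 and 384 in WT_Aged and 429, 568, 484 and 378 in KO_Aged), with a difference of -0.07, overlapped and did not pass, nor did those of Eng at -0.44, Kdr at -0.26 and Flt4 at -0.09.

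Among the junction proteins Cdh5 fell by 1.25, Cldn5 by 0.81 and Esam by 0.66. Esam read 906, 951, 1026, 1204 and 1073 in WT_Aged and 744, 759, 605 and 553 in KO_Aged, without overlap (SE 0.14, adjusted p = 0.00220). Pecam1 read 481, 395, 322, 394 and 377 in WT_Aged and 758, 448, 445 and 344 in KO_Aged, overlapping, at 0.23 (adjusted p = 0.603). Egfl7 read 976, 671, 887, 865 and 846 in WT_Aged and 497, 464, 459 and 611 in KO_Aged, with separate groups, and fell by 0.77 (SE 0.15). Nos3 fell by 0.89, Plvap by 1.20, Aqp1 by 0.53 and Calcrl by 1.69. Ace read 93.6, 85.4, 59.5, 121 and 79.8 in WT_Aged and 241, 182, 248 and 210 in KO_Aged, and rose by 1.26 (SE 0.38, adjusted p = 0.0186).

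Without the 2 KO_Aged arrays of high Gapdh ratio 14 members fell and none rose: 10 of the 16 calls were kept, Cd93, Icam2, Ramp2 and Sox7 gained one, and Aqp1, Calcrl, Fli1 and Flt1 lost it. Tie1 was then at 0.83 (adjusted p = 0.0549) and Ace at 1.15 (adjusted p = 0.133). Single arrays decided 6 of the 16 calls. Without KO_Aged replicate 3, Ace (adjusted p = 0.0544), Fli1 (0.0507), Calcrl (0.140) and Flt1 (0.115) were not called. Without KO_Aged replicate 2, Aqp1 (0.0870), Calcrl (0.0625) and Cldn5 (0.0579) were not, and without KO_Aged replicate 4 neither were Cldn5 (0.109) and Flt1 (0.0601). Leaving out WT_Aged replicate 1, 2, 3 or 4 also cost Calcrl, Cldn5 or Flt1 the call, with adjusted p from 0.0504 to 0.0766. With poly-A controls as a term 4 members fell, namely Aqp1 by 1.10, Pecam1 by 1.28, Sox17 by 1.52 and Sox18 by 1.24, and none rose.

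**Figure D4:**
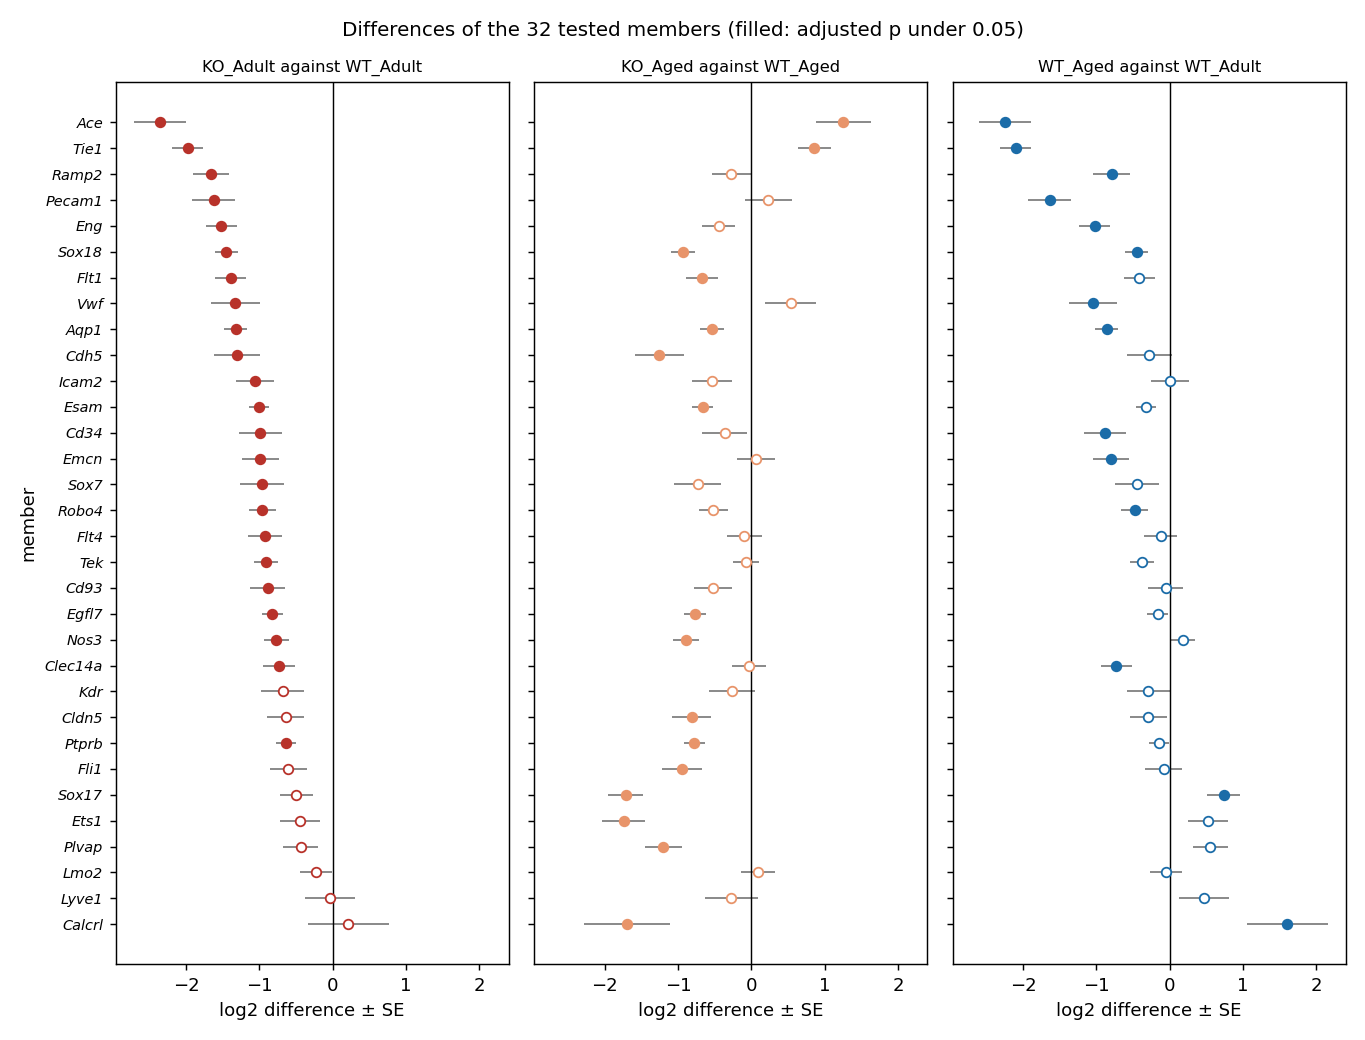
Log2 difference ± SE of the 32 tested members (rows) in 3 comparisons (panels), with filled points at an adjusted p under 0.05. The points of adult knockout against wild-type muscle lie left of 0 except Calcrl, those of aged knockout muscle lie left except for 6 that include Tie1 and Ace, and the age panel holds the falls of Ace, Tie1 and Pecam1 and the rise of Calcrl. The age panel shares the WT_Adult arrays with the adult genotype panel and the WT_Aged arrays with the aged one.

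Age was compared within each genotype. In wild-type muscle 12 of 32 members were lower and 2 higher at 12 to 14 months, where 21% and 17.9% of all genes were. In 9 members the WT_Aged arrays all lay below the WT_Adult arrays, where 17.5% of genes did. The median of the members was -0.31, against -0.03 for all genes. Tie1 had the smallest p, and its readings given above show no overlap between WT_Adult and WT_Aged; it was lower by 2.10 (SE 0.21, adjusted p = 1.69e-05), a 4.29-fold difference. Ace was at -2.25 (SE 0.36), Pecam1 at -1.64 (SE 0.30), Eng at -1.03 and Aqp1 at -0.86, and in each of these 4 the arrays of the ages were separate. Eng read 691, 582, 633, 619 and 475 and Aqp1 5245, 4932, 5640, 5624 and 5338 on the WT_Aged arrays. Sox17 at 0.74 (adjusted p = 0.0168) and Calcrl at 1.60 (adjusted p = 0.0282) were higher.

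This age difference lies wholly across the poly-A split, and age and split cannot be told apart. With the poly-A term, which then takes its size from KO_Adult, no member passed in either direction. How many of all genes still passed with the term was not counted, so this absence cannot be set against a background. Within KO_Adult alone, the 3 arrays with poly-A controls differed from the 2 without by -1.51 in Pecam1, -1.51 in Ace, -0.71 in Tie1, -0.56 in Aqp1 and 2.10 in Calcrl, all called. Eng and Sox17, also named above for age, were not called there. The mean log2 value of Eng was 8.61 with controls and 8.92 without, and that of Sox17 was 9.06 and 8.87. In that comparison 6 members were lower and 3 higher, where 13% and 13.3% of all genes were. Of the 14 calls for age in wild-type muscle, 8 held without each array in turn. Ramp2 was lost without WT_Adult replicate 3 (adjusted p = 0.0556), Vwf without WT_Adult replicate 2 (0.0504) or WT_Aged replicate 2 (0.0546), and Calcrl, Cd34, Robo4 and Sox18 without any of 4 or more arrays (adjusted p from 0.0508 to 0.146).

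In knockout muscle none of the 32 was lower and 1, Ace, was higher at 12 to 14 months, where 3.6% and 3.71% of genes were called. An unadjusted limma p under 0.05 was found for 7 of the 32 and for 1728 of all 7436 genes. The median of the members was 0.05, against 0.03 for all genes. Ace rose by 1.36 (SE 0.38, adjusted p = 0.0355), and its groups overlapped, since KO_Adult replicate 1 read above KO_Aged replicate 2. The call was lost without KO_Adult replicate 3, 4 or 5 or without any 1 of the 4 KO_Aged arrays, with adjusted p from 0.0533 to 0.110. Tie1 was at 0.74 (SE 0.22, adjusted p = 0.0502) and Flt4 at 0.71 (SE 0.24, adjusted p = 0.0756). Flt4 read 133, 175, 200 and 174 in KO_Aged, near its WT_Aged readings of 179, 165, 177, 167 and 180. Kdr, whose aged readings were 272, 255, 296, 249 and 133 in WT_Aged and 154, 336, 184 and 185 in KO_Aged, was not called in any of the 4 pairwise comparisons.

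The genotype difference was tested against age by the interaction, the knockout minus wild-type difference of aged muscle minus that of adult muscle. It passed for 11 of 32 members, 9 above 0 and 2 below, where 14.5% and 10.7% of genes passed. Tie1 was at 2.84 (SE 0.31, adjusted p = 4.85e-05), Ace at 3.61 (SE 0.52, adjusted p = 0.000198) and Pecam1 at 1.86 (SE 0.43, adjusted p = 0.00552), each with a fall in adult muscle and none in aged muscle. Vwf, Ramp2, Tek, Eng, Aqp1 and Emcn were above 0 too, and Sox17 and Ets1 below, which fell in the aged and did not pass in the adult comparison. With the poly-A term none of the 11 passed. Without KO_Aged replicates 2 and 3, 5 members above 0 and 1 below passed. Emcn lost its call without WT_Adult replicate 1, 2 or 3, WT_Aged replicate 2, 3 or 5, KO_Adult replicate 3, 4 or 5 or KO_Aged replicate 2 or 3 (adjusted p from 0.0542 to 0.0944), and Ets1 without KO_Adult replicate 3 (0.05004), KO_Aged replicate 3 (0.0632) or KO_Aged replicate 4 (0.0508).

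Because the poly-A split crosses genotype only in KO_Adult, knockout and wild-type arrays were also compared on each side of it, in one fit in which KO_Adult was divided by control signal. These 2 comparisons share no array. Without controls, 2 KO_Adult arrays stood against 5 WT_Adult arrays, and 16 of 32 members were lower and none higher, where 3.11% and 3.56% of genes were called. The adult comparison with the poly-A term, described above, is this same one, so the 16 calls are not a second result. With controls, 3 KO_Adult arrays stood against 5 WT_Aged arrays, so that age differs as well, and 10 were lower and none higher, where 4.73% and 4.56% of genes were. The groups did not overlap, with knockout lower, in 20 members without and 19 with controls, where 10.9% and 11.6% of genes did so. The medians of the members were -0.96 and -0.59, against 0.05 and 0.04 for all genes. Below 0 were 31 of 32 members without controls and 32 of 32 with them, as were 46.2% and 46% of genes.

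Called on both sides were 8 members: Aqp1, Egfl7, Esam, Flt1, Nos3, Ramp2, Sox18 and Tek. The share of all genes called lower on both sides was not counted. Sox18 was at -1.27 without controls and -1.12 with them, Flt1 at -1.68 and -0.79, Ramp2 at -1.46 and -1.004, and Esam at -1.05 and -0.65. Tek, which binds the angiopoietins, was at -0.77 and -0.64. Called only without controls were 8, among them Tie1 at -1.55 (adjusted p = 0.00102) against -0.16 (adjusted p = 0.689) with them, and Cdh5 at -1.97 against -0.58. Icam2 at -1.34 and Sox17 at -1.16 were called only with controls, where they had -0.66 and -0.61 without. The difference between the sides was not tested for single members. Pecam1, whose fall in the undivided comparison was 1.63, was at -0.72 (adjusted p = 0.0680) without and -0.59 (adjusted p = 0.0744) with controls.

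The arrays without controls also allow KO_Aged to be set against WT_Adult, where genotype and age differ together. There 22 of 32 members were lower and none higher, where 15.1% and 15.8% of genes were called, with a median of -0.98. Aqp1 was at -1.39, Sox18 at -1.38, Pecam1 at -1.41, Ets1 at -1.21 and Tie1 at -1.24. This comparison uses the same WT_Adult arrays as the 2 KO_Adult arrays above. Against those 2 KO_Adult arrays no member of KO_Aged was called in either direction, where 5.15% of genes were lower and 4.84% higher. An unadjusted limma p under 0.05 was found for 6 of the 32 members and for 2218 of all 7436 genes.

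**Figure D5:**
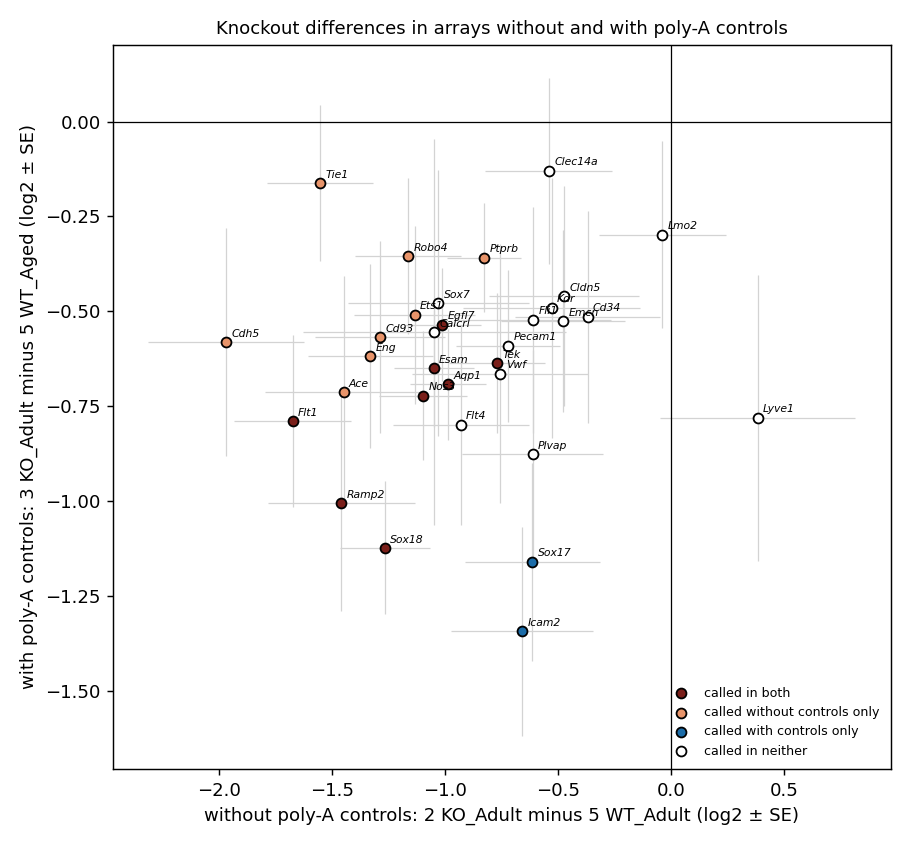
Log2 difference ± SE of each tested member among arrays without poly-A controls (horizontal axis, 2 KO_Adult minus 5 WT_Adult) and with them (vertical axis, 3 KO_Adult minus 5 WT_Aged). All points except Lyve1 lie below 0 on both axes, 8 are called in both, and Tie1 lies near 0 on the vertical axis only.

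Several members had more than 1 probe set, 13 of the 34, and these did not always match. In a separate fit over probe sets, those of a gene shared a sign in 10 of the 13 for adult knockout against wild-type muscle, in 11 for aged knockout against wild-type muscle and in 5 for age in wild-type muscle, and no gene was called in opposite directions. The 4 probe sets of Egfl7 differed by -0.82, -0.78, -0.65 and -0.18 in adult and by -0.77, -1.01, -0.85 and -0.94 in aged knockout muscle. The chosen probe sets of Egfl7 and Sox17 carry the suffix _x_at, which the array's maker gives to probe sets that can also match other transcripts. For Flt1 the 3 probe sets gave -1.39, -1.38 and 0.06 in adult knockout muscle and -0.67, -0.85 and -2.10 in aged knockout muscle, and in that fit only the last of the 3 was called in aged muscle (the chosen one had an adjusted p of 0.0595). Which transcripts it reads was not tested. It was also called for age in wild-type muscle, at 1.18, and in the interaction, at -2.17. There the chosen probe set of Flt1 gave -0.42 and 0.73, neither called. The second probe set of Sox17 gave -0.67 and -1.27 in adult and aged knockout muscle. For age in wild-type muscle it gave 0.09, where the chosen one gave 0.74. The second of Eng gave -0.65 and -0.88, and for age in wild-type muscle 0.47 where the chosen one gave -1.03. The second of Cdh5 gave -2.22 and -0.79, and the second of Ace -1.72 and -0.38, where the chosen probe set of Ace was at 1.26 in aged muscle. For age in wild-type muscle the second of Cdh5 gave -2.41 and was called, where the chosen one gave -0.28 and was not. The second of Calcrl was dim (mean intensity 15.0). It gave -1.15 in adult and 0.74 in aged knockout muscle and -0.94 for age in wild-type muscle, none called. The chosen one of Calcrl gave 0.21, -1.69 and 1.60.

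Other genes of vessel signalling, from a list of 38 that overlaps none of the members, were read beside them. Of the 31 tested, 10 fell and 2 rose in adult knockout muscle (median -0.39) and 15 fell and 2 rose in aged knockout muscle (median -0.56), beside the 9.39% lower and 7.21% higher of all genes in adult and the 12.3% and 17.1% in aged muscle. With age, 5 were lower and 6 higher in wild-type muscle (21% and 17.9% of all genes) and 2 lower and 1 higher in knockout muscle (3.6% and 3.71%). Vegfb, a growth factor that binds Flt1, fell by 1.63 (SE 0.21) in adult muscle. Cav1, the coat protein of caveolae, fell by 0.999 in adult and by 0.92 in aged muscle. Vegfd, a ligand of Flt4, rose by 1.98 in adult and by 0.78 in aged muscle. On the 2 sides of the poly-A split Cav1 was at -1.001 and -1.10 and Vegfd at 1.65 and 1.04, all called. The main ligand of Kdr, Vegfa, was at -0.32 (adjusted p = 0.202) in adult and -0.39 (adjusted p = 0.111) in aged knockout muscle and did not pass.

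Markers of the cells around and inside vessels were read in the same way. Of 12 tested pericyte and smooth muscle genes, with Des itself left out, 3 fell and 1 rose in each genotype comparison (medians -0.55 in adult and -0.50 in aged muscle), beside the same shares of all genes, and 4 were lower with age in wild-type muscle and 1 in knockout muscle. Notch3, a receptor of mural cells, fell by 0.70 and by 0.80, and the contractile genes Tagln and Smtn fell by 1.24 and 0.94 in adult muscle. Summed over 16 genes, mural intensity ran from 11564 to 18556 on WT_Adult arrays, 10303 to 14900 on WT_Aged, 8845 to 12521 on KO_Adult and 7504 to 11529 on KO_Aged arrays. Erythrocyte genes, a sign of blood left in the tissue, read low on the knockout arrays, with some overlap: summed over 5 genes they ran from 827 to 7270 on WT_Adult arrays, 3556 to 8220 on WT_Aged, 262 to 899 on KO_Adult and 247 to 1210 on KO_Aged arrays. Of 3 tested, Alas2 (haem synthesis in red cells) fell by 2.25 in adult and all 3 fell in aged knockout muscle, with Hbb-b2 at -4.18 and Slc4a1 at -2.42. In KO_Adult none of the 3 was called against WT_Adult on the arrays without poly-A controls, and all 3 were lower than in WT_Aged on those with them. What part mural cells or blood content have in the endothelial values was not tested.

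Genes of inflammatory and matrix cells were read beside these. The shares of all genes called higher were 7.21% in adult and 17.1% in aged knockout muscle, 17.9% with age in wild-type and 3.71% with age in knockout muscle. Of 14 macrophage genes 2 rose in adult knockout muscle, Ctss by 1.07 and Ptprc by 1.19, none was called in aged knockout muscle and 7 rose with age in wild-type muscle. With age in knockout muscle 4 were higher and 1 lower. Cd68 was at -0.79 (adjusted p = 0.0748) in adult knockout muscle. Summed over 15 genes, macrophage intensity ran from 4698 to 7930 on WT_Adult arrays, 4806 to 17397 on WT_Aged, 5379 to 10093 on KO_Adult and 9652 to 17420 on KO_Aged arrays. Of 4 neutrophil genes none was called for genotype, with S100a8 at 1.16, S100a9 at 1.34 and Csf3r at 1.01 in adult muscle, and all 4 rose with age in wild-type and 2 in knockout muscle. Of 8 fibroblast genes 1, Col1a1, was called lower in adult knockout muscle, at -2.67, and its value differed with the poly-A split. The KO_Adult arrays with controls were at -3.42 against those without, and Col1a1 was at -0.62 in KO_Adult against WT_Adult without controls and at 0.75 in KO_Adult against WT_Aged with controls, neither called. Fbln1 at -1.25 and Dpt at 0.57 did not pass in adult muscle, 3 of the 8, Col1a1 among them at 3.71, were higher in aged knockout muscle, and 3 were lower with age in wild-type muscle. Among 12 fibre genes the smallest p in adult muscle were those of Atp2a1 at -0.13, Mylpf at 0.11 and Tnnt3 at 0.09, none called.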

How the data were processed

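Expression was measured in 19 samples, 1 array each. The authors deposited one linear intensity for each probe set on each array. MAS5 is named for this step per the submitters' processing notes; the version was not given in the sources used here. No deposited value is below 1, and 0.654% are at 1. Probe sets were named from the platform annotation; 20380 of 22690 had 1 symbol. Values were transformed to log2(value + 4.76), percentile 10 of all values, and quantile normalized, since array medians spanned 0.63. Folds are taken on that scale, where changes of dim genes come out too small. The number of arrays limits the precision.

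All 19 arrays entered 1 fit with a mean per group (limma 3.58.1, R 4.3.3, lmFit and eBayes), adjusted by Benjamini-Hochberg over 7436 genes; a gene was called at an adjusted p under 0.05. For the poly-A control split (dap over 100) KO_Adult was divided into 2 means. The fit was tested on simulated data that held no poly-A split and no dependence between genes, so that test does not bear on either. Described with readings were the 5 members of smallest p in each genotype comparison and in wild-type age, the 3 of smallest p in knockout age and in the interaction, and the angiopoietin and growth factor receptors; from other lists, the 3 of smallest p, and Vegfa, chosen after its values were seen. Members, lists and tests were chosen with earlier results of these data known. Figures were drawn with matplotlib 3.10.9 under Python 3.11.15.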

Additional observations from a re-analysis of the deposited data

Results flagged for a closer look

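In 5 cases 1 array stood far from the others of its group, out of 136 groups of values examined, where chance alone would give about 6.8. Pecam1, the junction adhesion molecule, was highest on WT_Adult replicate 3 at 10.59 (normalised log2 value; the nearest array had 10.25). Tie1 was lowest on WT_Adult replicate 4 at 8.11, against 8.58 on the nearest array. Kdr at 7.21 (nearest 7.97) and Icam2 at 8.08 (nearest 8.42) were both lowest on WT_Aged replicate 5. Erg, too dim to be tested, was highest on KO_Aged replicate 3 at 4.27, against 3.30 on the nearest array, and that array has a high Gapdh ratio.

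The genotype difference differed between ages for 11 members by the interaction test (limma). It was 2.84 for Tie1, 3.61 for Ace, 1.86 for Pecam1, 1.86 for Vwf, 1.39 for Ramp2, 1.08 for Eng, 1.05 for Emcn, 0.84 for Tek, 0.79 for Aqp1, -1.21 for Sox17 and -1.30 for Ets1 on the log2 scale. None of the 11 passed with poly-A control signal as a term, and WT_Aged lies wholly on the side of the arrays with that signal, so age and control signal cannot be told apart in wild-type muscle.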

How the results depend on the processing

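In adult knockout against wild-type muscle the count of lower members stayed between 16 and 26, and that of higher members at 0, under every alternative run, and leaving out single arrays gave 19 to 25 lower. The 16 was of 22 members tested in the upper 40% of genes, and of 32 with the poly-A term. Except for the term, the share of all genes called was not counted in the alternative runs. With poly-A control signal as a term, 4 members were lower and 0 higher in aged knockout muscle, 0 lower and 0 higher with age in wild-type muscle, 0 higher with age in knockout muscle, and 0 passed the interaction in either direction. Under that term, among members called without or with it, the sign turned for Ace (-0.26), Calcrl (0.40) and Pecam1 (-1.28) in aged knockout muscle, for Calcrl (-0.49), Cd34 (0.15) and Emcn (0.047) with age in wild-type muscle, and for Aqp1 (-0.11), Emcn (-0.31), Ets1 (0.55) and Pecam1 (-0.55) in the interaction; the cause was not tested. It also turned for members called in neither: 2 in adult and 4 in aged knockout muscle, 3 with age in wild-type and 10 in knockout muscle, and 6 in the interaction, among them Calcrl from -1.91 to 1.45 and Cd34 from 0.62 to -1.02. Without the arrays of Gapdh ratio over 3, 0 members were higher in aged knockout muscle and with age in knockout muscle, and the interaction had 5 above 0 and 1 below. Averaging a gene's probe sets gave 1 higher in aged knockout muscle, 0 higher with age in either genotype and 1 interaction below 0. In the upper 40% of genes, where 22 members were tested, 0 were higher in aged knockout muscle, 1 with age in wild-type and 0 in knockout muscle. Median centring left 5 interactions above 0. Members higher with age in knockout muscle numbered 4 without normalization, 3 without WT_Adult replicates 4 and 5, and 0 with all genes tested or with only the 2 groups compared. Leaving out single arrays gave 11 to 15 lower and 1 to 2 higher in aged knockout muscle, 8 to 13 lower and 1 to 2 higher with age in wild-type muscle, 0 to 1 lower and 0 to 2 higher in knockout muscle, and 8 to 11 interactions above 0 and 1 to 3 below. In adult knockout muscle the median over all genes was 0.04, and 0.19 after median centring, where the members had -0.94 and -0.78. Following higher members in the genotype comparisons and in wild-type age, the interaction counts and the medians across the alternatives was chosen after seeing the data. No paired analysis was possible because the groups compared share fewer than 2 numbers: the codes that end the sample titles have no stated meaning, none is shared whole, and 1 is shared in its first 4 digits (WT_Aged replicates 4 and 5, KO_Aged replicate 4). Replicate numbers used here follow accession order. Dim members such as Erg, near background on most arrays, limit what can be read from them.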

Other observations

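Of 4 tested genes of lymphatic endothelium (Flt4 and Lyve1 are also members), 2 fell in adult knockout muscle, Flt4 and Reln, the latter by 1.19, and Pdpn at -0.54 did not pass. None of the 4 was called in aged knockout muscle or with age in wild-type muscle. Of 3 platelet genes none was called for genotype, with Pf4 at 0.36, Ppbp at 0.35 and Itga2b at -0.15 in adult muscle, and 2 rose with age in wild-type muscle. Of 2 Schwann cell genes, Sox10 at -0.31 and Mbp at -0.39 did not pass in adult knockout muscle, and Mbp rose by 1.21 in aged knockout muscle. Among all genes, 9.39% were lower in adult knockout muscle, 17.1% higher in aged knockout muscle and 17.9% higher with age in wild-type muscle.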
